A study of Mus musculus with 8 samples.

Results

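A set of 10 genes of the proneural and Notch pathway was followed from embryonic stem cells to neural precursors: the proneural factors Neurog1, Neurog2, Neurod1 and Neurod4, the Notch ligands Dll1 and Dll3, the receptor Notch1 and the target-family genes Hes1, Hes5 and Hes6. They were taken by symbol, and all 10 were found among the 26263 genes of the count tables and among the 16399 genes with enough reads to be tested. Poly(A) RNA-seq was made from hybrid male mouse embryonic stem cells (ESCs), kept in a medium with LIF, BMP4 and an inhibitor of GSK3-β, and from the neural precursor cells (NPCs) derived from them at day 12 of in vitro corticogenesis, on Matrigel with the BMP receptor inhibitor dorsomorphin homolog 1. Both reciprocal crosses were represented: B/J, with the genotype C57BL/6 x JF1 and the line BJE2, and J/B, with the genotype JF1 x C57BL/6 and the line JBE6, where JF1 is an inbred strain of Mus musculus molossinus. Each of the 4 groups held 2 replicates. No group carried a transgene or a deletion. Each cross was 1 line, so that cross and line cannot be told apart, and the labels do not say whether replicates came from separate cultures, so that p-values measure the spread between these samples, which may be technical. NPCs are a mixed culture, and in bulk RNA fewer cells of a type and less RNA per cell cannot be told apart.

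Proneural factors are basic helix-loop-helix (bHLH) proteins that pair with E proteins, bind E-boxes and push a precursor toward a neuron. Among the genes they switch on is Dll1, whose product binds Notch1 on neighbouring cells. The cleaved receptor then works with the DNA-binding protein RBPJ to activate Hes1 and Hes5, repressors that hold proneural genes down in the receiving cell. This exchange, called lateral inhibition, keeps some cells as precursors while others differentiate, and cortical precursors are a textbook case of it.

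Reads counted on genes ranged from 22537138 to 32706015 per library, so that 1 read was worth 0.0306 to 0.0444 CPM, the usual unit for the reads of a gene scaled to all reads counted on genes, and a count of 0 allows up to 0.0917 to 0.133 CPM (3 counts). Intervals and limits of this kind cover counting error only. In the check of the labels, all 10 pluripotency markers were lower in NPCs, 7 of 10 neural precursor markers and 9 of 10 neuron markers were higher, and 1 marker of each of the last 2 lists, the precursor gene Sox2 in the first, was lower. NPC libraries also held markers of other cells: 9 of 10 trophoblast markers, summing to 1496 to 3965 CPM against 52.1 to 171 in ESCs, all 10 fibroblast markers, 6 of 7 tested endoderm markers, summing to 25.4 to 95.3 CPM against 10.3 to 10.6 in ESCs, and 4 of 8 endothelial markers rose. The endothelial markers that rose were Cdh5, a cadherin of endothelial junctions (log2 fold change 11.19, from 0.140 to 473 CPM), Kdr (4.09, from 0.778 to 18.8 CPM), Emcn and Esam, while Pecam1 (-2.35, from 51.1 to 15.7 CPM) and Erg fell, and Tie1 and Tek did not pass. The part of these cells in the results below was not tested.

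RefSeq promoters of 4 members are shown because their upstream bases lie, wholly or in part, outside the annotated gene. Whether proneural or Notch factors act at them was not tested. The RefSeq table (build GRCm38.p6) held 12 entries for 9 members, with Hes1 named only. The 250 bases before each start were found by exact match in GRCm39. For printing only, bases inside the GENCODE gene were cut off, and each sequence is printed 5′ to 3′ on the strand of the gene. Capitals mark matches to the searched motifs on either strand: TGGGAA, the core bound by RBPJ, the E-boxes CAGCTG and CAGATG, the N box CACNAG and the class C site CACGCG of Hes repressors.
Hes5, chr4:155045130-155045372, + strand: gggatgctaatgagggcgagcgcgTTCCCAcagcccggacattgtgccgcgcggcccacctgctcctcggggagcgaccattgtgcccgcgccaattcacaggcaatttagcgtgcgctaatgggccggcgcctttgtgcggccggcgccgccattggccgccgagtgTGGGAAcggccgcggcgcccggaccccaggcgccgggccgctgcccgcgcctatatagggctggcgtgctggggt
Dll1, upstream start, chr17:15597195-15597444, - strand: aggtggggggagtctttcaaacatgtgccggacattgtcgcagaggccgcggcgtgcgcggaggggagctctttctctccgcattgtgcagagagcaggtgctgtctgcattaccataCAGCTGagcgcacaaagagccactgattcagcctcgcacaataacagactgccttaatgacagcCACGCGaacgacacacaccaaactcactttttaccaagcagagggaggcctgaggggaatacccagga
Neurod4, upstream start, chr10:130116133-130116373, - strand: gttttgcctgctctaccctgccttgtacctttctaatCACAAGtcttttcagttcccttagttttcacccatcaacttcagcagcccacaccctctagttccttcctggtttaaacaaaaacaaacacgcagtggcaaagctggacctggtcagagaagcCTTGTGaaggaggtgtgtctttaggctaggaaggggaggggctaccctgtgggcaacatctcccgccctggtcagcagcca
Neurog1, chr13:56399994-56400243, - strand: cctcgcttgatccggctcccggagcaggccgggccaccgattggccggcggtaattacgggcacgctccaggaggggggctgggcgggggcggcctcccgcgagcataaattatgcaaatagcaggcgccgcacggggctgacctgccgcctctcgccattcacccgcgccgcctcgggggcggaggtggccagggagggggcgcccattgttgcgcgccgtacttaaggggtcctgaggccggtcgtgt

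TGGGAA stood in 1 of the 9 members with an entry, Hes5, at bases 226 to 221 before the start on the other strand and at bases 82 to 77 on the given strand, against 21.6% of 32851 RefSeq promoters in a window of the same 250 bases. That share is per window, whereas a member counts if any of its windows held the motif, so the count over the 12 member windows, here 1, is given too. CAGCTG stood in 3 of 9, namely Dll1, Dll3 and Hes6, and in 4 of 12 windows, against 13% of promoters. CACNAG stood in 3 of 9, namely Neurod4, Notch1 and Hes6, and in 4 of 12 windows, against 36.7% of promoters. The Neurod4 windows overlap and share the CTTGTG match, which is counted in both of them. CACGCG stood in 2 of 9, Dll1 and Neurod1, and in 2 of 12 windows, against 7.62% of promoters. CAGATG stood in 0 of 9 members and 0 of 12 windows against 14.4% of promoters, and none of the 5 motifs stood in the Neurog1 and Neurog2 windows. Motifs were searched in all 250 bases of each window, whether printed or not. The windows of Neurog2, Neurod1, Dll3, Notch1 and Hes6, and the Dll1 window not printed, lay wholly inside the annotated gene. The matches counted for Dll3, Hes6, Notch1 and Neurod1 thus stand in gene sequence. All matches are descriptions of letters in a window and say nothing of whether a factor binds there.

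In all, 9 of the 10 members were higher in NPCs than in ESCs over both crosses, none was lower, and Neurod1 did not pass the test (edgeR's quasi-likelihood test, Benjamini-Hochberg adjusted p below 0.05 over the 16399 genes). Of all genes tested, 37.5% were called higher and 31.9% lower, so that the 2 stages differed in most of the transcriptome. The median log2 fold change of the members was 3.29, against 0.17 over all genes tested. In the same 9 members every NPC library lay above every ESC library in CPM, as it did in 46.7% of the genes tested. On the TMM scale this held for 7 members, since Notch1 and Hes1 then overlapped too, and for 35.3% of the genes tested.

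**Figure D1:**
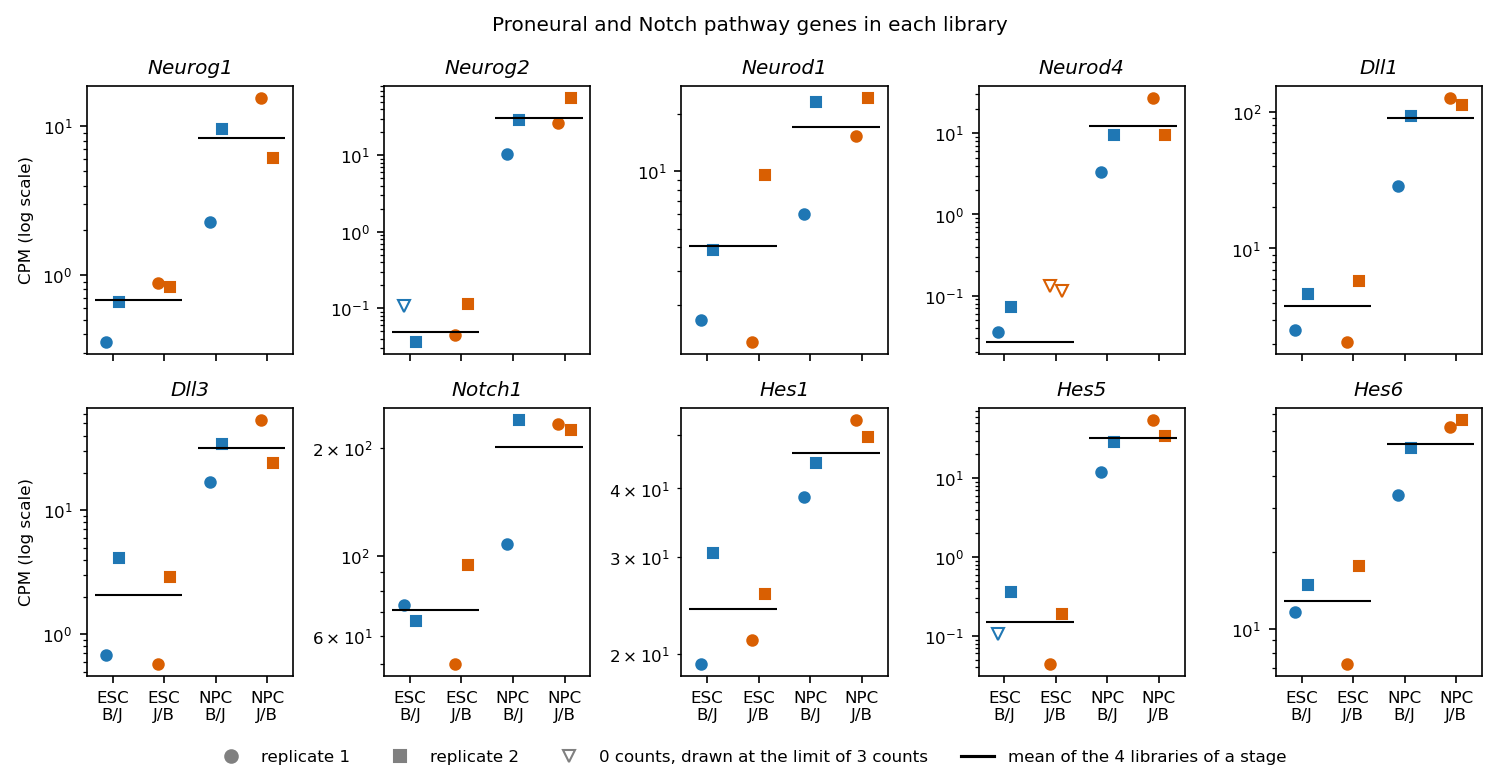
CPM of each member on a log axis in the 2 replicates of each stage and cross, with the mean of the 4 libraries of a stage as a line and libraries with 0 counts drawn as open triangles at the limit of 3 counts. In CPM, the NPC points stand above all ESC points in each panel other than that of Neurod1, where the highest ESC library (9.54 CPM) exceeded the lowest NPC library (5.97 CPM).

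Among the proneural factors, Neurog2 and Neurod4 went from a few reads to clear expression, Neurog1 rose from a low level, and Neurod1 was already present in ESCs. Neurog2 (ENSMUSG00000027967.10, chr3:127426448-127429280, + strand, GRCm39), the main neurogenin of the dorsal cortex, stood in ESCs at 0 and 0.0365 CPM in B/J replicates 1 and 2 and at 0.0444 and 0.113 CPM in J/B replicates 1 and 2. In NPCs it stood at 10.5, 28.9, 26.7 and 55.7 CPM in the same order. The ESC libraries held 5 reads of Neurog2 in all, the groups did not overlap, and J/B replicate 2 was the highest NPC library. Pooled over libraries, NPCs held 440 times the ESC level on the TMM scale (95% counting interval 188 to 1357), and the fitted log2 fold change was 8.89 ± 0.66 (SE, adjusted p = 3.42e-05 by edgeR).

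Neurod4 (ENSMUSG00000048015.6, chr10:130104021-130116132, - strand, GRCm39), a factor that follows the neurogenins in differentiating cells, stood in ESCs at 0.0356 and 0.0730 CPM in the B/J replicates and at 0 in both J/B replicates. The NPC libraries held 3.38 and 9.59 CPM in B/J and 27.0 and 9.64 CPM in J/B. Thus 3 reads stood in the ESCs of B/J and 0 in those of J/B, and J/B replicate 1 was the highest NPC library. Over both crosses the pooled ratio was 323 on the TMM scale (95% counting interval 110 to 1566, 3 ESC reads), and the fitted log2 fold change was 9.04 ± 0.87 (SE, adjusted p = 1.48e-04 by edgeR). In J/B the NPC level was at least 227-fold higher than the limit set by 3 counts over the 2 ESC libraries.

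Neurog1 (ENSMUSG00000048904.6, chr13:56398291-56399976, - strand, GRCm39), the second neurogenin of the cortex, held 0.356 and 0.657 CPM in the B/J ESCs and 0.887 and 0.830 CPM in the J/B ESCs. NPC levels were 2.27 and 9.56 CPM in B/J and 15.5 and 6.17 CPM in J/B. The stages did not overlap, and B/J replicate 1 was again the NPC library nearest to the ESCs. The log2 fold change was 3.11 ± 0.58 (SE, adjusted p = 0.0019 by edgeR).

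Neurod1 (ENSMUSG00000034701.11, chr2:79282865-79287294, - strand, GRCm39) acts downstream of the neurogenins in neurons and also in the endocrine pancreas. Its ESC levels were 1.67 and 3.87 CPM in B/J and 1.29 and 9.54 CPM in J/B, and its NPC levels were 5.97 and 22.9 CPM in B/J and 15.3 and 24.1 CPM in J/B. The groups overlapped, through the high J/B replicate 2 among ESCs and the low B/J replicate 1 among NPCs. The log2 fold change was 1.65 ± 0.66 (SE, adjusted p = 0.0541 by edgeR), and over 20 other settings the adjusted p ran from 0.00428 to 0.203, passing in 10. It passed when ESC J/B replicate 2 was left out (log2 fold change 2.66, adjusted p = 0.00696) or when NPC B/J replicate 1 was (1.98, adjusted p = 0.0319). Of 8 markers of pancreatic and enteroendocrine cells 3 had enough reads to be tested: Nkx6-1 was called higher, Neurog3 lower, and Chga did not pass. Ins1 had no read in any library.

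Both ligands rose. Dll1 (ENSMUSG00000014773.15, chr17:15587276-15597134, - strand, GRCm39), the ligand that activates Notch on neighbouring cells, stood at 2.53 and 4.67 CPM in the B/J ESCs and at 2.09 and 5.81 CPM in the J/B ESCs. In NPCs it reached 28.5 and 92.3 CPM in B/J and 125.2 and 112.3 CPM in J/B. Even B/J replicate 1, the lowest NPC library, lay above every ESC library. The log2 fold change was 4.01 ± 0.47 (SE, adjusted p = 2.07e-04 by edgeR). Exons of Dll1 share 1369 bases with Fam120b on the opposite strand, and Fam120b stood at 11.7 to 15.9 CPM in ESCs and 36.7 to 56.6 CPM in NPCs.

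Dll3 (ENSMUSG00000003436.13, chr7:27992978-28001673, - strand, GRCm39) is a divergent ligand that does not activate Notch on neighbouring cells. It stood at 0.676 and 4.12 CPM in the B/J ESCs and at 0.577 and 2.87 CPM in the J/B ESCs, and at 17.0 and 34.0 CPM in B/J and 53.0 and 23.8 CPM in J/B NPCs. The stages did not overlap, and in the ESCs of both crosses replicate 2 was the higher one, as it was for the sum of the presomitic markers described below (116 and 91.7 CPM against 26.6 and 37.5 in replicates 1). Most of that ESC difference was the gene T (72.0 and 58.2 CPM against 5.41 and 7.45), and Mesp2 went the other way (1.46 and 1.24 CPM against 1.60 and 3.99). The log2 fold change of Dll3 was 3.48 ± 0.69 (SE, adjusted p = 0.00264 by edgeR). Dll3 also marks presomitic mesoderm, whose other markers did not rise as a list: 2 of 7 tested were higher and 3 lower in NPCs. Their summed level was 218 CPM in J/B replicate 1, the NPC library with the most Dll3, and 30.1 to 60.1 CPM in the other NPC libraries. Most of that sum was the gene T (173 CPM). J/B replicate 1 was also the highest NPC library for Meox1 (20.8 CPM against 1.43 to 3.69), Tcf15 (6.27 against 1.07 to 3.39) and Cyp26a1 (15.1 against 8.55 to 11.0), but not for Tbx6 (2.02 CPM against 2.03 in J/B replicate 2). Mesp2 and Ripply2 stood below 1 CPM in every NPC library, and Msgn1, at no more than 0.0612 CPM, below the limit that a count of 0 allows. Tbx6 and Cyp26a1 were the markers called higher, Msgn1, Mesp2 and Tcf15 those called lower, and Ripply2 had too few reads to be tested. The part of these cells in the Dll3 level was not tested.

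Notch1, the receptor (ENSMUSG00000026923.16, chr2:26347915-26406675, - strand, GRCm39), was expressed at both stages and rose about 2-fold on the TMM scale (2.8-fold in mean CPM). It stood at 72.9 and 66.0 CPM in the B/J ESCs, at 50.1 and 94.3 CPM in the J/B ESCs, and at 107.8, 238.5, 232.6 and 224.2 CPM in the NPCs of B/J and J/B. No NPC library fell to the ESC range in CPM, but on the TMM scale B/J replicate 1 (94.6) lay below ESC J/B replicate 2 (106.6). The log2 fold change was 1.01 ± 0.27 (SE, adjusted p = 0.0112 by edgeR), with adjusted p from 7.15e-04 to 0.148 over 20 other settings. Taking only the libraries numbered 1, the log2 fold change was 0.90 and did not pass (adjusted p = 0.148). Notch1 exons share 1996 bases with 0610009E02Rik on the opposite strand, which stood at no more than 1.01 CPM in any library.

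Of the Hes genes, Hes5 went from near 0 to a high level, Hes6 rose about 3-fold on the TMM scale (4.14-fold in mean CPM) and Hes1 changed least. Hes5 (ENSMUSG00000048001.9, chr4:155045373-155046828, + strand, GRCm39), the Notch target most typical of neural precursors and the member with 2 TGGGAA motifs in the sequence printed above, stood at 0 and 0.365 CPM in the B/J ESCs and at 0.0444 and 0.189 CPM in the J/B ESCs. NPC levels were 12.0 and 28.9 CPM in B/J and 54.1 and 33.8 CPM in J/B. With 16 ESC reads in all, the pooled ratio was 153 on the TMM scale (95% counting interval 94.2 to 268). The fitted log2 fold change was 7.15 ± 0.75 (SE, adjusted p = 1.19e-04 by edgeR).

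Hes1 (ENSMUSG00000022528.10, chr16:29882134-29886643, + strand, GRCm39), a Notch target that other signals also drive in many cell types, stood at 19.1 and 30.5 CPM in the B/J ESCs and at 21.2 and 25.7 CPM in the J/B ESCs. In NPCs it stood at 38.7 and 44.5 CPM in B/J and 53.3 and 49.6 CPM in J/B. The groups did not overlap in CPM, whereas on the TMM scale the lowest NPC library (33.9) lay below the highest ESC library (35.8), and its range within each stage, 1.38-fold in NPCs, was the narrowest of the members for which a fold could be formed. On the TMM scale the log2 fold change was 0.46 ± 0.18 (SE, adjusted p = 0.0446 by edgeR). This call was weak: it was lost in 9 of 20 other settings (adjusted p from 0.00263 to 0.140). It was lost without any 1 of the 8 libraries other than ESC B/J replicate 2 (adjusted p from 0.0576 to 0.133).

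Hes6 (ENSMUSG00000067071.10, chr1:91339204-91342103, - strand, GRCm39) is the atypical member of the family, which opposes Hes1 and favours neurogenesis. It stood at 11.7 and 14.8 CPM in the B/J ESCs and at 7.28 and 17.7 CPM in the J/B ESCs, and at 33.7 and 51.4 CPM in B/J and 62.0 and 66.2 CPM in J/B NPCs. All NPC libraries lay above all ESC libraries. The log2 fold change was 1.55 ± 0.28 (SE, adjusted p = 0.00168 by edgeR). Hes5 and Hes6 exons also share 440 and 461 bases with genes on the opposite strand that the count tables do not list.

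The size of these changes depended on how libraries were scaled, although no direction did. TMM factors were 0.820 to 0.885 in ESCs and 1.14 to 1.21 in NPCs, and the median log2 fold change over all genes moved from 0.17 with TMM to 0.65 with library totals and 0.80 with scaling on Gapdh, Gusb and Tbp. The share of calls that were higher moved with it, from 54.0% to 70.1% and 75.0%. All 10 members were called higher under both of the other scalings, with a median log2 fold change of 3.76 and 3.91, against 48.9% and 51.6% of all genes tested.

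**Figure D2:**
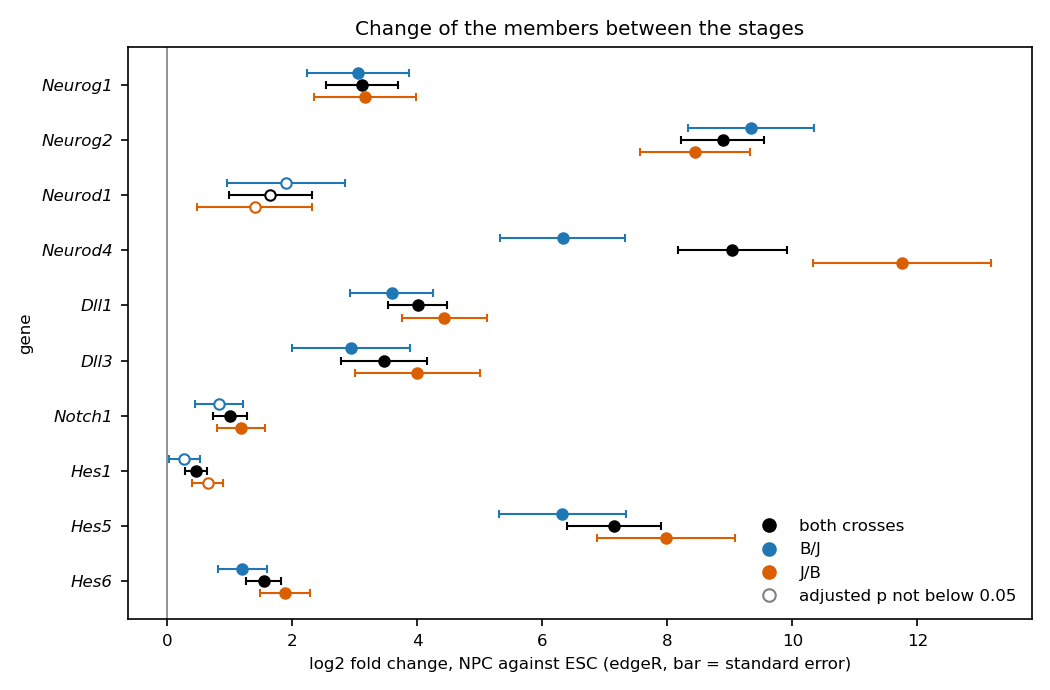
Log2 fold change of each member, NPC against ESC, with its standard error, over both crosses and in each cross, open where the adjusted p was not below 0.05. Neurog2, Neurod4 and Hes5 form the group with the highest values (7.15 to 9.04 over both crosses) and Hes1 the lowest (0.46), and the J/B value of Neurod4 rests on ESC libraries without a read.

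Within each cross the question was whether both lines showed the change. In B/J, 7 of 10 members were called higher, against 30.1% of all genes tested, and Neurod1, Notch1 and Hes1 were not. In J/B, 8 of 10 were called higher, against 29.1% of all genes tested, and Neurod1 and Hes1 were not. All 10 log2 fold changes were above 0 in each cross. In B/J they were 9.34 for Neurog2, 6.33 for Neurod4, 6.32 for Hes5, 3.59 for Dll1, 3.06 for Neurog1 and 2.95 for Dll3. The J/B values for the same genes were 8.44, 11.75, 7.99, 4.43, 3.17 and 4.0. The B/J count was 4 without ESC B/J replicate 1 or without NPC B/J replicate 2, where Neurog1, Dll3 and Hes6 no longer passed (adjusted p from 0.0961 to 0.154).

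No member passed the test of a difference between the crosses in its change. By the edgeR interaction term, 0 of 10 members were called and 0 had an unadjusted p below 0.05, with 0% of all genes called, 573 genes at an unadjusted p below 0.05, and 8 genes but no member called by DESeq2. The largest interaction estimate, 5.42 ± 2.41 (SE) on the log2 scale for Neurod4, rests on the ESC libraries of J/B that had no read. For Hes1, with the narrowest error, the estimate was 0.37 ± 0.35 (SE). In ESCs, J/B against B/J gave 0 members called, 0 at an unadjusted p below 0.05 and 0% of all genes, against 346 genes at an unadjusted p below 0.05 and 10 genes called by DESeq2. In NPCs the same comparison gave 0 members, 0 at an unadjusted p below 0.05 and 0.0061% of all genes (1 gene), against 1050 genes at an unadjusted p below 0.05 and 68 called by DESeq2. All 10 NPC estimates were above 0, from 0.26 ± 0.25 (SE) for Hes1 to 1.46 ± 0.69 (SE) for Neurod4, and B/J replicate 1, described next, is 1 of the 2 libraries behind the lower group.

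NPC B/J replicate 1 was the lowest NPC library for 10 of 10 members. The highest was J/B replicate 1 for 6 members (Neurog1, Neurod4, Dll1, Dll3, Hes1 and Hes5), J/B replicate 2 for Neurog2, Neurod1 and Hes6, and B/J replicate 2 for Notch1. From lowest to highest NPC library the proneural genes ranged 8.01-fold for Neurod4, 6.81-fold for Neurog1, 5.31-fold for Neurog2 and 4.03-fold for Neurod1. Hes5 ranged 4.50-fold, Dll1 4.39-fold, Dll3 3.12-fold, Notch1 2.21-fold, Hes6 1.97-fold and Hes1 1.38-fold. The lists of cell markers moved too: in B/J replicate 1 the 10 neuron markers summed to 394 CPM against 1088 to 2196 in the other NPC libraries, and the 10 neural precursor markers to 818 CPM against 1562 to 2078. Its trophoblast markers summed to 3965 CPM against 1496 to 2190 and its endothelial markers to 975 CPM against 297 to 521. Most of that endothelial sum was Cdh5 (880 CPM against 254 to 454). The neuron sum was highest in J/B replicate 2 (1088 CPM in J/B replicate 1), and the neural precursor sum was highest in J/B replicate 1. Their part in the members' spread was not tested. Without B/J replicate 1, Neurod1 joined the members called higher over both crosses and Hes1 left them. Their log2 fold changes were then 1.98 and 0.50, against 1.65 and 0.46 with all libraries.

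**Figure D3:**
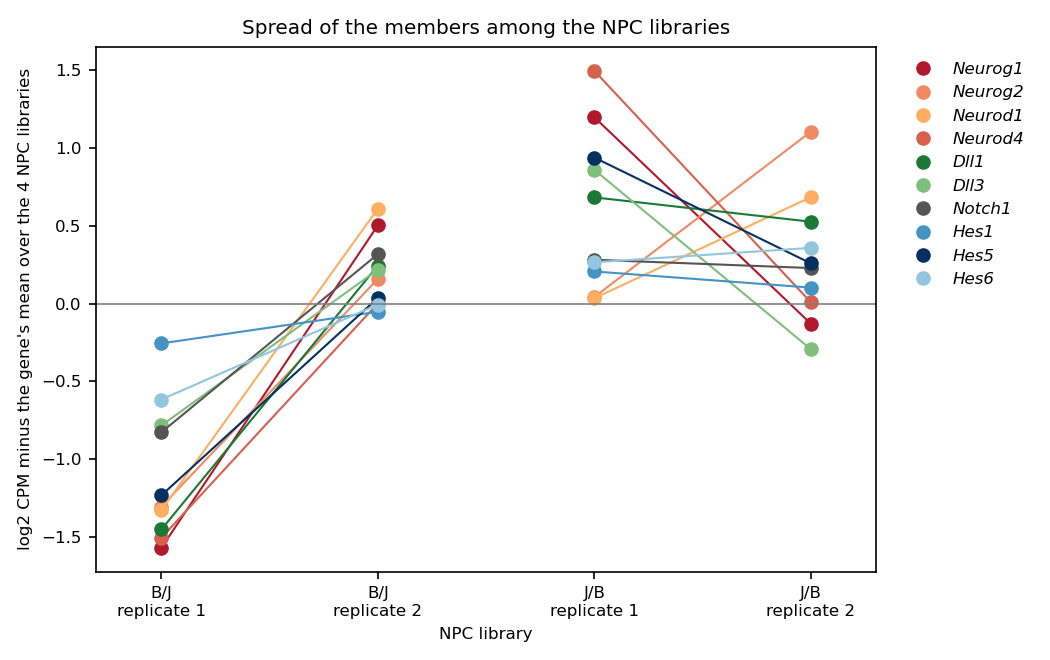
Log2 CPM of each member in each NPC library, minus the mean of that gene over the 4 NPC libraries, with lines joining the replicates of a cross. All 10 points of B/J replicate 1 lie below 0, and J/B replicates 1 and 2 are led by different genes, Neurod4 and Neurog2.

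The replicate number was compared because libraries with the same number deviated together within a stage. In NPCs, number 2 against number 1 called 0 members by edgeR, with 0.335% of all genes called. At an unadjusted p below 0.05 stood 2 of the 10 members, near the 20.5% of all genes. Neurog2 came nearest, with a log2 difference of 1.23 ± 0.24 (SE, adjusted p = 0.0712, and 0.0147 to 0.294 over 12 other settings), and it was higher in replicate 2 of both crosses. Within each cross, B/J first, replicate 2 also held the higher neuron sum (1414 against 394 and 2196 against 1088 CPM) and the lower trophoblast (2190 against 3965 and 1496 against 2152 CPM) and endothelial sums (521 against 975 and 297 against 340 CPM). Their part in the difference was not tested. In ESCs, the same term called 0 members and 2.43% of all genes, and at an unadjusted p below 0.05 stood 3 of the 10 members against 24.4% of all genes. Dll3 differed by 2.40 ± 0.61 (SE, adjusted p = 0.0884) and Neurod1 by 1.96 ± 0.51 (SE, adjusted p = 0.0916), both higher in replicate 2 of both crosses. In those replicates 2 the presomitic marker sum was also higher (116 and 91.7 CPM against 26.6 and 37.5), mostly through T (72.0 and 58.2 CPM against 5.41 and 7.45). The pluripotency sum was lower there (6005 and 5414 CPM against 7813 and 8721). The neural precursor sum (1010.5 and 936 CPM against 681 and 628) and the trophoblast sum (171 and 158 CPM against 85.4 and 52.1) were higher there too. Most of the precursor difference was Sox2 (692 and 624 CPM against 378 and 391). Otx2 was also higher (22.8 and 22.6 CPM against 1.25 and 0.932), whereas Sox1 was lower (1.82 and 1.96 CPM against 4.34 and 2.53). The endothelial sum was lower (37.9 and 47.9 CPM against 65.2 and 99.6), mostly through Pecam1 (29.6 and 36.5 CPM against 53.5 and 84.8). In B/J, Kdr was higher in replicate 2 (1.24 CPM against 0.356). Their part in the difference was not tested. In NPCs, Neurog2 was called by DESeq2, by limma-voom and with housekeeping scaling, where 783, 873 and 717 of the 16399 genes were called. DESeq2 called Dll3 and Neurod1 in ESCs, with 1536 of the 16399 genes. Among the ESC libraries, replicate 2 of B/J or of J/B was the highest for 9 of the 10 members.

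Levels were compared between genes as CPM per kb of exon, from the union of GENCODE exons in GRCm39. In NPCs the order of the means was Hes5 (23.5 ± 12.6 CPM per kb, SD, n = 4), Hes6 (18.5 ± 5.04), Dll1 (18.1 ± 8.65), Notch1 (14.1 ± 4.37), Hes1 (13.8 ± 1.88), Neurog2 (11.9 ± 7.31), Dll3 (10.5 ± 5.15), Neurod1 (5.62 ± 2.75), Neurog1 (4.96 ± 3.32) and Neurod4 (3.68 ± 3.02). For all 9 pairs of neighbours in this order the ranges overlapped and the difference was smaller than the larger SD, so that no neighbours differed beyond the spread between libraries. Within libraries, 1 of the 9 pairs had the same order in all 4 NPC libraries, Neurog1 above Neurod4, and with the longest transcript as length Dll3 stood above Neurod1 in all 4 as well. In ESCs the members with the highest levels per length were Hes1 (7.15 ± 1.5 CPM per kb), Notch1 (4.98 ± 1.29) and Hes6 (4.48 ± 1.56), and Hes5 stood at 0.109 ± 0.120. With the longest transcript as length, 8 of 10 members kept their rank and Neurog2 and Dll3 changed places.

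**Figure D4:**
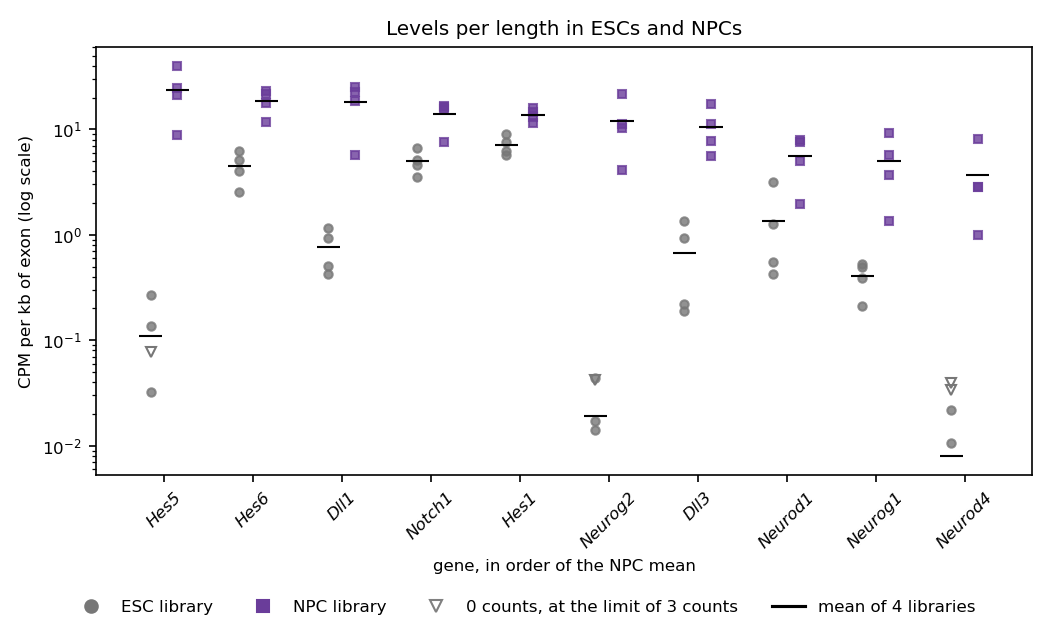
CPM per kb of exon of each member on a log axis in the 4 ESC and 4 NPC libraries, in order of the NPC mean, with libraries at 0 counts drawn at the limit of 3 counts. Hes5 stands first in NPCs at 23.5 CPM per kb, from 0.109 in ESCs, whereas Hes1 moved from 7.15 to 13.8.

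Ratios within a library do not depend on its scaling, and 0.5 was added to each count to form them. The Hes5 to Hes1 ratio per length was 0.00229 to 0.0309 in ESCs and 0.766, 1.60, 2.50 and 1.68 in the NPC libraries of B/J and J/B. Hes5 thus passed Hes1 in 3 of 4 NPC libraries and in no ESC library, with B/J replicate 1 the exception, also with the longest transcript as length. The Dll1 to Notch1 ratio per length was 0.100 to 0.204 in ESCs and 0.759, 1.11, 1.54 and 1.44 in NPCs. Again the stages did not overlap. Which NPC libraries held less ligand than receptor mRNA per length depended on the length used: B/J replicate 1 with the union of exons, and both B/J replicates with the longest transcript (0.617 and 0.903), an alternative chosen after seeing the data.

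The other genes of the pathway were followed as lists, to be read against the 37.5% of all genes tested that were called higher and the 31.9% called lower. Of the 6 Notch ligands and receptors that are not members, 3 rose and 1 fell. Dll4, best known from endothelium, rose from 0.104 ± 0.108 CPM to 5.76 ± 1.04 CPM (SD, n = 4), with a log2 fold change of 5.43 ± 0.57 (SE). The receptors Notch2 and Notch3, both expressed in radial precursors, reached 170 ± 10.9 and 153 ± 40.4 CPM (SD, n = 4), with log2 fold changes of 1.56 and 1.20. Notch4, an endothelial receptor, fell from 60.2 ± 14.7 to 3.95 ± 0.553 CPM, a log2 fold change of -4.42 ± 0.26 (SE). Jag1 and Jag2, ligands of the other family, did not pass, at log2 fold changes of 0.75 ± 0.49 and 0.52 ± 0.40 (SE). Without ESC J/B replicate 2 both passed (1.66 and 1.02, adjusted p = 0.00156 and 0.0356 by edgeR), so that 5 of the 6 rose.

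Among 21 genes of Notch processing and modulation, 10 rose, 3 fell and 8 did not pass, with a median log2 fold change of 0.83. With library totals or housekeeping scaling 17 rose and 1 fell, while the share of all genes called higher moved from 37.5% to 48.9% and 51.6%. The genes with the largest changes were Dlk2 (log2 fold change 5.90 ± 0.88, SE) and Dlk1 (4.57 ± 0.29), non-classical ligands, and Aph1b (4.55 ± 0.39), a subunit of gamma-secretase. Among 18 genes of the transcription complex and other targets, 17 were tested, 11 rose and 2 fell, with a median of 0.86, and with housekeeping scaling 12 rose and 1 fell. The target Heyl rose from 0.0474 ± 0.0456 to 19.9 ± 7.20 CPM (SD, n = 4), with a log2 fold change of 8.32 ± 0.50 (SE). Dtx4, a ubiquitin ligase that modulates Notch, and Maml3, a coactivator, followed with 4.71 ± 0.52 and 4.61 ± 0.48 (SE). Rbpj itself, the factor that binds TGGGAA, fell from 333 ± 82.9 to 169 ± 27.2 CPM, a log2 fold change of -1.46 ± 0.21 (SE).

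Of 12 other proneural and neuronal bHLH factors, 11 were tested, 7 rose and 3 fell, with a median log2 fold change of 6.55. Nhlh1 and Neurod6, which mark young neurons, had 0 reads in every ESC library and stood in NPCs at least 971-fold and 140-fold above the limit of 3 counts over the 4 libraries. The Neurod6 value rests on NPC J/B replicate 2, at 21.5 CPM against 0.887 to 1.47 CPM in the others, and without it the bound was 26.9-fold. Nhlh2 rose from 0.0422 ± 0.0629 to 97.1 ± 47.6 CPM (log2 fold change 10.82 ± 0.78, SE). Olig1, Olig2 and Neurog3 fell, at -4.23 ± 0.42, -2.33 ± 0.55 and -2.05 ± 0.73 (SE), and with either of the other scalings 8 rose and 2 fell. Among 6 bHLH partners and inhibitors, 2 rose and 2 fell, near the shares of all genes. The E protein Tcf12 rose 2.34 ± 0.13 and the inhibitor Id4 rose 3.03 ± 0.51 on the log2 scale (SE), while the inhibitors Id1 and Id3 changed by -1.16 ± 0.37 and -1.07 ± 0.12. With either of the other scalings 1 of the 6 fell instead of 2, as it did without ESC B/J replicate 2, ESC J/B replicate 2, NPC B/J replicate 1 or NPC J/B replicate 1. Of 14 genes of neurogenic commitment, 13 rose, with a median of 4.70. They were led by the zinc finger factor Myt1 (9.83 ± 0.72, SE) and the early B-cell factors Ebf2 (8.73 ± 0.40) and Ebf3 (8.33 ± 0.55), which act as neurons leave the cycle. The one that did not pass was Eomes, at -0.85 ± 0.54 (SE). Its level in NPC J/B replicate 2 was 42.7 CPM against 5.72 to 13.2 CPM in the other NPC libraries, and without that library it was called lower (log2 fold change -1.88, adjusted p = 0.0024 by edgeR, and 0.180 to 0.381 without each of the others).

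**Figure D5:**
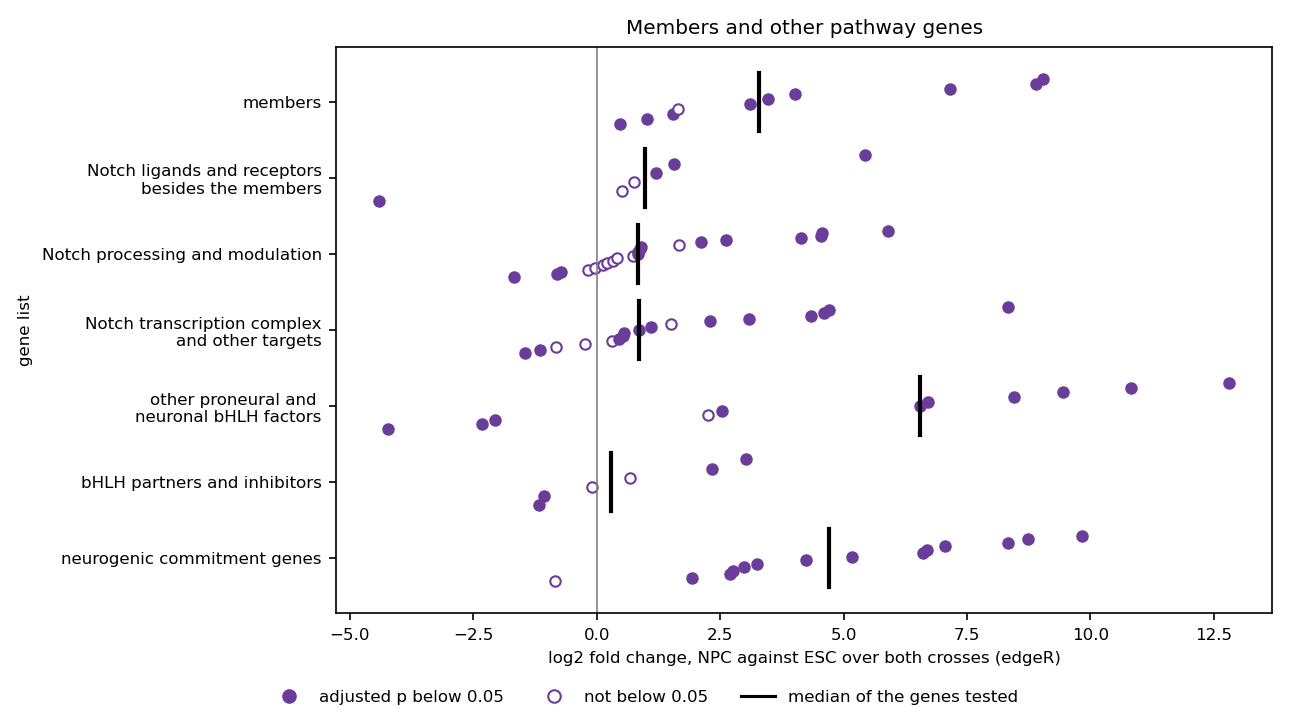
Log2 fold change, NPC against ESC over both crosses, of each tested gene in the members and in 6 other lists, filled where the adjusted p was below 0.05, with the median of each list as a vertical line. The medians run from 0.29 for the bHLH partners and inhibitors to 6.55 for the other bHLH factors, with the members at 3.29, and Notch4 stands apart among the ligands and receptors at -4.42.

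The genes whose pattern lay nearest to each member were found by the root mean square difference of centred log2 CPM over the 8 libraries, among 14081 genes with a mean of at least 1 CPM. For Neurog2 they were Lrrc4b (0.18 on the log2 scale), Rab3c (0.22) and Ctnna2 (0.29). Those of Dll1 were Slc44a5 (0.21), Nrcam (0.24) and Cyp4f15 (0.26), and those of Dll3 were Car14 (0.33), Nrarp (0.40), itself on the list of Notch targets, and Meis3 (0.42). Neurod4 had Nkx6-1 (0.42), BC024139 (0.46) and Hoxaas2 (0.47), and Neurog1 had Stum (0.27), Emid1 (0.32) and Greb1 (0.33). Hes5 had Scg3 (0.49), C130021I20Rik (0.58) and Scrt1 (0.60), the widest distances of the members. Closest of all was Hes1 with Krt10 (0.065), Thoc7 (0.081) and Polb (0.083). Notch1 had Gm3414 (0.14), Mark1 (0.16) and Spire1 (0.18), Hes6 had Fndc4 (0.14), Thap2 (0.15) and Ccdc173 (0.16), and Neurod1 had Lmtk3 (0.36), AI504432 (0.37) and Ptprn (0.37). All points share the 8 libraries, and no member was among the 3 nearest genes of another.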

How the data were processed

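RNA-seq of 8 libraries was analysed. The deposited values are raw counts of reads per gene, not normalized and summed over both alleles. Per the study's methods and the labels, the authors ran TopHat2 against an mm39 genome whose SNP positions were masked, and the submitters' processing notes also name HTSeq, DESeq2 and edgeR. The study's methods give a first-strand library type for the alignment. The strand setting of the counting itself was not given in the sources used here, and reads of overlapping genes on opposite strands cannot be assigned with certainty. Libraries were made with 1 of 2 kits and run on 1 of 2 instruments, and which library had which was not given. Reads with no feature (5.76 to 10.9% of a library) and ambiguous reads (0.355 to 0.554%) were left out of totals and tests.

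Counts were tested with edgeR 4.0.16 (R 4.3.3) on 4 group means fitted to all 8 libraries: filterByExpr with a minimum count of 10, TMM, robust quasi-likelihood test, and Benjamini-Hochberg adjustment over 16399 genes with a threshold of 0.05. Stage, cross within stage, their interaction and the replicate number within stage were tested. The scripts were tested on simulated data. Alternatives were RLE factors, library totals, scaling on Gapdh, Gusb and Tbp, DESeq2 1.42.0, limma-voom (limma 3.58.1), other filters, no robust estimation, an added 2-fold threshold, the replicate block, subsets of libraries and leaving out each library. The text names all members, every other Notch ligand and receptor, the 3 genes with the largest significant change and a mean of at least 1 CPM in each other list, and the 3 nearest genes per member. Other genes named were chosen after their values were seen. The members and lists were chosen with earlier results of these data known. Replicates differed by more than sampling noise (chi-square over degrees of freedom 49.4 to 68.6) and none was merged.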

Additional observations from a re-analysis of the deposited data

Results flagged for a closer look

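Notch1 in NPC B/J replicate 1 stood far from the other NPC libraries. Its level was 107.8 CPM, against 224.2 to 238.5 CPM in the other 3, and the gap took up 0.890 of the range of the 4 libraries (past Dixon's 95% critical value for 4 samples). Of 20 groups of 4 libraries tested, 10 members in 2 stages, this was the only one so far out, and chance gives about 1 in 20. The same library was the lowest NPC library for the other 9 members.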

How the results depend on the processing

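No member's change between the stages reversed under any alternative. Over both crosses the count of members called higher ran from 8 to 10 over 21 alternatives and from 8 to 9 without each library in turn, and was 8 with an added 2-fold threshold. In B/J it was 4 to 8 without each library (7 with all), the lowest without ESC B/J replicate 1 or NPC B/J replicate 2, and in J/B 6 to 8, the lowest without ESC or NPC J/B replicate 1, where Neurog1 and Notch1 no longer passed (adjusted p from 0.0511 to 0.152 by edgeR). A lone library left in a group was taken to vary as the other groups do. Of 200 values of single members for the stage, 179 kept their side of the threshold, 11 lost it (Hes1 and Notch1) and 10 gained it (Neurod1). For number 2 against number 1 in NPCs, housekeeping scaling, DESeq2 and limma-voom each called 1 member, Neurog2, where edgeR called 0, and in ESCs DESeq2 called 2. Replicate numbers were not taken as pairs: deviations of same-numbered libraries correlated at 0.52 in ESCs and 0.59 in NPCs but at 0.049 to 0.091 across stages, and 8 of 8 libraries correlated best with their own number. With the replicate block, 10 members were called higher over both crosses, against 39.9% of all genes tested, Neurod1 included (adjusted p = 0.00428 by edgeR). With a replicate block within stage, 9 were, against 38.1% of all genes tested, Neurod1 included and Notch1 not (adjusted p = 0.0507 by edgeR). In B/J the block called 8 and the block within stage 7, and in J/B 10 and 9. Neurod1 passed in both crosses with either block (adjusted p from 0.0206 to 0.0264) and Hes1 in J/B (0.0365 and 0.0151), whereas the block within stage lost Neurog1 in B/J (0.0671) and Notch1 in J/B (0.0506). The causes were not tested. Over all genes, the number comparison called 55 in NPCs by edgeR against 783 by DESeq2 and 873 by limma-voom, and 398 in ESCs against 1536 and 171. A fit of only the groups compared is the same as the fit used for the stage over both crosses and was not run again. Depth limits Neurog2, Neurod4 and Hes5 in ESCs, which rest on 5, 3 and 16 reads.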

Other observations

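Members of a pair took different shares in different NPC libraries. The Neurog2 to Neurog1 ratio per length was 3.02 and 1.99 in the B/J NPCs and 1.13 and 5.92 in the J/B NPCs, so that J/B replicates 1 and 2 held the lowest and the highest value. The Neurod4 to Neurod1 ratio per length was 0.511 and 0.379 in the B/J NPCs and 1.59 and 0.362 in the J/B NPCs, and Neurod4 passed Neurod1 only in J/B replicate 1.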
